A study of Mus musculus with 9 samples.

Results

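The genes of class I PI3K and AKT signalling were described in neutrophils of mice that carry a mutation in the RagC GTPase. They were chosen by name as the parts of the growth factor arm that feeds mTORC1 in parallel to the Rag GTPases. All 9 genes named (Pik3cd, Pik3cg, Pik3r1, Pik3r5, Pik3ap1, Inpp5d, Akt1, Akt2 and Pdpk1) were among the 7197 genes listed, and all 9 passed the filter on low values. Bone marrow neutrophils sorted as CD45+, CD11b+ and Ly6G+ were profiled from 5 Rragc+/+ and 4 RragcS74N/+ libraries, all from mice at 2 months of age with no treatment named. RragcS74N/+ mice carry 1 germline copy of Rragc with serine 74 changed to asparagine, made by CRISPR editing, so the mutation is present in every cell of the animal and not in neutrophils alone. Rragc+/+ mice carry no mutant copy.

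Class I PI3Ks are kinases of the plasma membrane that make the lipid PIP3 when receptors are engaged. Class IA enzymes pair a catalytic subunit with a p85-type regulatory subunit downstream of tyrosine kinases, whereas the class IB enzyme p110γ is switched on by the Gβγ subunits that chemoattractant receptors release. PIP3 brings AKT and its activating kinase PDK1 to the membrane, AKT then phosphorylates targets such as TSC2 and the FOXO factors, and relief of TSC2 lets Rheb activate mTORC1. In neutrophils the pathway is known for directed migration, the oxidative burst and survival. Its activity is set by phosphorylation, which transcript levels do not measure.

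The libraries held 1214295 to 1973957 reads over the listed genes, and the 9 genes together took 0.091% to 0.141% of them. All 8 neutrophil markers were listed, with Csf3r at the 62.7th percentile of mean level among the listed genes and Itgam, the next lowest, at the 97.8th. Of markers of other cells, 0 of 6 for T and NK cells, 0 of 4 for primary granules, 1 of 6 for B cells (Ighm), 2 of 6 for monocytes, 3 of 5 for eosinophils and basophils and 5 of 6 for erythroid cells were listed. Their summed levels overlapped between genotypes in every listed class. In relative terms the widest was the erythroid sum, at 1083 to 5506 normalized counts in Rragc+/+ and 369 to 2092 in RragcS74N/+ libraries. All 5 listed erythroid genes had estimates below Rragc+/+ in the mutant, by −1.23 to −2.16 on the log2 scale, with unadjusted p of 0.00188 to 0.0219 and adjusted p of at least 0.713 by limma. The 3 listed eosinophil and basophil markers differed in direction. By limma, Prg2 had an estimate of 1.38 (unadjusted p = 0.0394), Epx of 1.10 (unadjusted p = 0.179) and Siglecf of −0.14 (unadjusted p = 0.557). The monocyte sum was mostly Ly6c2, with a mean of 2676 normalized counts and an estimate of 0.001. Csf1r, with a mean of 143, had an estimate of −0.655 (unadjusted p = 0.0719, adjusted p = 0.713 by limma). All 4 mutant libraries were below its Rragc+/+ mean, and its highest value was in Rragc+/+ replicate 2. The part of these cells in the values below was not tested. Rragc itself was at 71.0 ± 10.3 normalized counts (SD, n = 5) against 65.8 ± 9.52 (SD, n = 4) in the mutant, with an adjusted p of 0.86 by limma. The codon change and the silent changes made with it are not visible in a count of reads per gene, so this level does not check the genotype labels.

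Rragc+/+ replicate 2 stood apart from the other 8 libraries. It held the fewest reads, and its mean Spearman correlation with the others over the tested genes was 0.891, against 0.929 to 0.951 for the rest. It was the extreme library for 7 of the 9 genes. It was the highest for Akt2, Inpp5d and Pik3r1, and the lowest for Pik3cd, Pik3cg, Pik3r5 and Pik3ap1. Its root mean square deviation from the mean of each gene was 0.56 on the log2 scale over the 9 genes and 0.66 over all tested genes. For the 9 genes, differences between genotypes are given with and without it wherever leaving it out moved them by over 1.5 times.

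Values are normalized counts, read counts that the authors divided by a size factor for each library. Each transcript contributes reads from its 3′ end only, so the values were not divided by transcript length. How fully each gene's 3′ end was captured was not measured. The order, shares and ratios of genes, and the genes called most abundant, thus rest on counts and may not match transcript numbers. By mean over the 9 libraries the order of these levels was Pik3cd (380), Akt2 (368), Akt1 (184), Pik3cg (159), Inpp5d (132), Pik3r1 (93.3), Pik3r5 (83.8), Pdpk1 (65.6) and Pik3ap1 (61.8 normalized counts). All 9 lay above the middle of the listed genes, from the 57.3rd percentile for Pik3ap1 to the 91.5th for Pik3cd. Akt2 was above Akt1, and Inpp5d above Pik3r1, in 9 of 9 libraries. The other neighbours in the order exchanged places in some libraries, and Pik3r1 was above Pik3r5 in only 5 of 9.

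**Figure D1:**
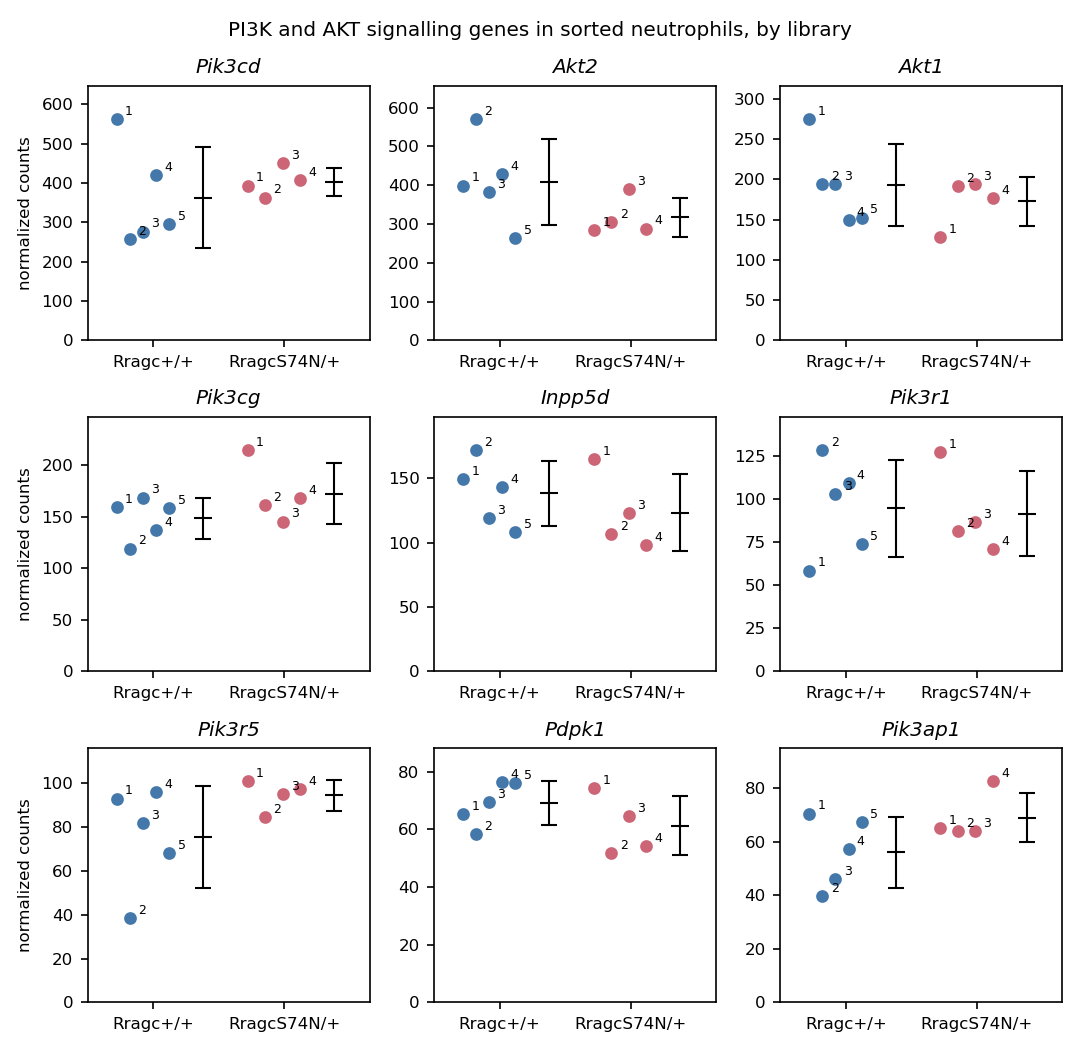
Normalized counts (vertical axis, linear from 0) of the 9 genes in each library, with 5 Rragc+/+ libraries in blue, 4 RragcS74N/+ libraries in red, the replicate number beside each point, and black bars for the mean ± SD of each genotype. The genotypes overlap in all 9 panels, and replicate 2 is the lowest or highest Rragc+/+ library in 8 of them.

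Of the catalytic subunits, Pik3cd and Pik3cg had estimates above Rragc+/+ in the mutant, and neither passed the test. Pik3cd encodes p110δ, the class IA catalytic subunit that is enriched in leukocytes. It was at 562, 257, 277, 420 and 295 normalized counts in Rragc+/+ replicates 1 to 5 and at 393, 363, 450 and 407 in RragcS74N/+ replicates 1 to 4. All 4 mutant libraries lay inside the Rragc+/+ range, whose upper end was set by replicate 1. The means were 362 ± 129 (SD, n = 5) and 403 ± 36.0 (SD, n = 4), a difference (RragcS74N/+ minus Rragc+/+, as throughout) of 0.22 on the log2(value + 1) scale (SE 0.22, 95% interval −0.26 to 0.69, adjusted p = 0.777 by limma). It was 0.11 without Rragc+/+ replicate 2, 0.135 without replicate 3 and 0.39 without replicate 1.

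Pik3cg encodes p110γ, the class IB catalytic subunit that answers to chemoattractant receptors. Its normalized counts were 159, 119, 169, 138 and 158 in Rragc+/+ and 215, 162, 145 and 168 in RragcS74N/+ libraries. RragcS74N/+ replicate 1 was above every other library, and the other 3 mutant libraries lay among the Rragc+/+ values. The log2 difference was 0.21 (SE 0.18, 95% interval −0.17 to 0.59, adjusted p = 0.741 by limma), or 0.13 without Rragc+/+ replicate 2 and 0.10 without RragcS74N/+ replicate 1. The interval runs from a fold of 0.891 to 1.5 and so covers no change.

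Among the 4 class I catalytic transcripts, Pik3cd took the largest share in every library. Of their summed normalized counts it made up 55.4% ± 7.13 (SD, n = 5) in wild-type libraries against 55.0% ± 4.38 (SD, n = 4) in mutant ones. Pik3cg came next at 23.8% ± 4.75 and 23.5% ± 3.18, followed by Pik3cb, the p110β gene, at 14.6% ± 2.20 and 14.7% ± 0.615. Pik3ca, the p110α gene, had the smallest share at 6.15% ± 1.93 and 6.88% ± 1.76. The mean shares of the leukocyte-enriched pair differed by under 1 percentage point between genotypes, less than the spread between libraries.

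**Figure D2:**
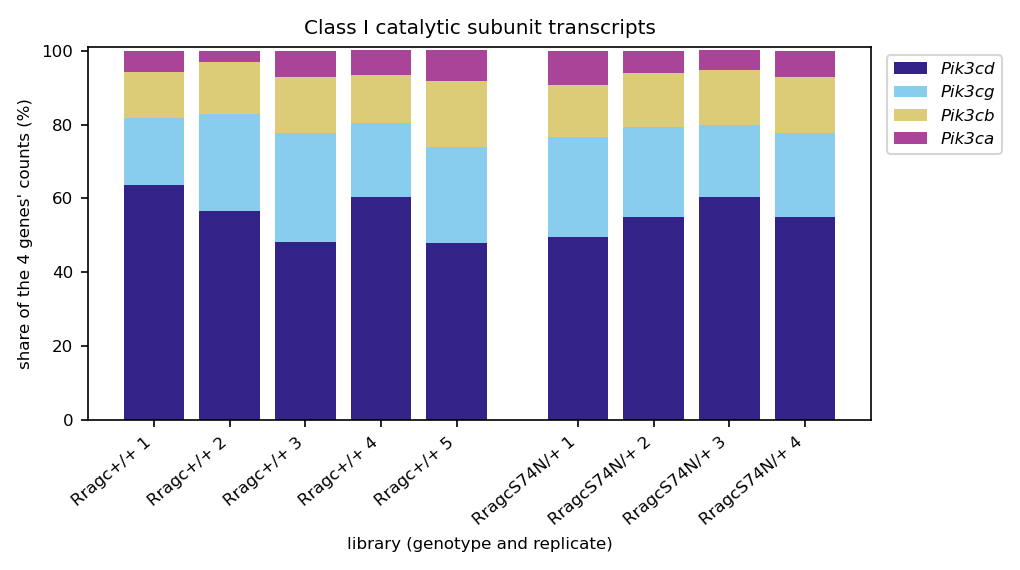
Stacked bars, from 0 to 100% of the summed normalized counts, of the 4 class I catalytic transcripts in each of the 9 libraries. Pik3cd is the largest segment everywhere, from 48.0% to 63.7% in Rragc+/+ and from 49.6% to 60.4% in RragcS74N/+ libraries.

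The regulatory and adaptor genes differed in direction, and none passed the test. Pik3r1 encodes p85α and its shorter forms, which hold and restrain the class IA catalytic subunits. Its normalized counts were 58.6, 129, 103, 109 and 74.2 in Rragc+/+ and 127, 81.3, 86.6 and 71.1 in RragcS74N/+ libraries. The genotypes overlapped widely, with 1 library of each near 128. RragcS74N/+ minus Rragc+/+ gave a log2 difference of −0.03 (SE 0.25, 95% interval −0.56 to 0.50, adjusted p = 0.978 by limma), and it was 0.09 without Rragc+/+ replicate 2.

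Pik3r5 encodes p101, the class IB regulatory subunit that couples p110γ to Gβγ. It was at 92.9, 38.6, 81.5, 95.7 and 68.2 normalized counts in Rragc+/+ and at 100.8, 84.4, 94.9 and 97.2 in RragcS74N/+ libraries. All 4 mutant libraries were above the Rragc+/+ mean of 75.4 ± 23.3 (SD, n = 5), and 2 of them lay inside the Rragc+/+ range. The log2 difference of 0.39 was the largest of the 9 in the upward direction (SE 0.24, 95% interval −0.14 to 0.91, adjusted p = 0.713 by limma). It was 0.165 without Rragc+/+ replicate 2, the library with the lowest value.

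Pik3ap1 encodes BCAP, an adaptor that recruits PI3K to B cell and Toll-like receptors. Its normalized counts were 70.5, 39.7, 45.9, 57.1 and 67.2 in Rragc+/+ and 65.0, 64.1, 64.0 and 82.6 in RragcS74N/+ libraries. The first 3 mutant libraries sat within 1 normalized count of each other, inside the Rragc+/+ range, and replicate 4 was above every other library. On the log2 scale the difference was 0.32 (SE 0.21, 95% interval −0.13 to 0.76, adjusted p = 0.714 by limma), or 0.20 without Rragc+/+ replicate 2. BCAP is also a B cell gene, and of the B cell markers only Ighm was listed, with 87.6 to 140 normalized counts in Rragc+/+ and 83.6 to 123 in RragcS74N/+ libraries.

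Of the summed transcripts of Pik3r1, Pik3r2, Pik3r5 and Pik3r6, Pik3r1 took 39.2% ± 8.26 in Rragc+/+ (SD, n = 5) against 36.1% ± 4.76 in RragcS74N/+ libraries (SD, n = 4). Pik3r5 took 32.1% ± 10.8 and 37.9% ± 3.83, with Rragc+/+ replicate 2 at 15.1%. Pik3r6, which encodes the other class IB regulatory subunit, p84, took 23.4% ± 4.07 and 22.3% ± 1.69. In these 3 shares the genotypes differed by less than the Rragc+/+ standard deviation. Pik3r2, the p85β gene, had the smallest share, at 5.35% ± 1.03 and 3.63% ± 0.863, a difference larger than either standard deviation, though the ranges of 3.67% to 6.16% and 2.70% to 4.76% overlapped. Its values rest on 6 to 16 reads a library, with a counting error of 28.4% of the mean. The log2 difference in its level was −0.45 (unadjusted p = 0.146, adjusted p = 0.714 by limma).

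Inpp5d encodes SHIP1, the blood cell phosphatase that removes the 5′ phosphate of PIP3. It was at 150, 172, 119, 143 and 108 normalized counts in Rragc+/+ and at 165, 107, 123 and 98.2 in RragcS74N/+ libraries. The ranges were interleaved, with the highest mutant library (replicate 1) second to Rragc+/+ replicate 2. The log2 difference was −0.18 (SE 0.20, 95% interval −0.61 to 0.25, adjusted p = 0.790 by limma). It was −0.09 without Rragc+/+ replicate 2, −0.077 without RragcS74N/+ replicate 4, −0.32 without RragcS74N/+ replicate 1, and −0.032 after removal of the GC trend described with Akt1 below.

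Of the 9 genes, the kinases downstream of PIP3 (Akt1, Akt2 and Pdpk1) had estimates below Rragc+/+ in the mutant, none passed the test, and that of Akt1 turned to 0.12 when a GC trend was removed. Sgk3, another kinase that answers to phosphoinositides, chosen after its values were seen, had an estimate of 0.26, with 4 of 4 mutant libraries above the Rragc+/+ mean (adjusted p = 0.713 by limma). Akt2 encodes the AKT isoform best known for insulin signalling. It was at 399, 570, 383, 429 and 263 normalized counts in Rragc+/+ and at 285, 305, 391 and 288 in RragcS74N/+ libraries. All 4 mutant libraries were below the Rragc+/+ mean of 409 ± 110 (SD, n = 5), but all 4 lay inside the Rragc+/+ range because replicate 5 was the lowest library of all. The log2 difference of −0.33 was the largest of the 9 in the downward direction (SE 0.21, 95% interval −0.78 to 0.12, adjusted p = 0.713 by limma). It was −0.20 without Rragc+/+ replicate 2 and −0.48 without replicate 5, where the unadjusted p was 0.0201 and the adjusted p 0.326 by limma.

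Akt1 encodes the broadly expressed AKT isoform. Its normalized counts were 275, 194, 194, 150 and 152 in Rragc+/+ and 128, 191, 194 and 177 in RragcS74N/+ libraries. Rragc+/+ replicate 1 was the highest and RragcS74N/+ replicate 1 the lowest, and the other 7 libraries overlapped. The log2 difference was −0.14 (SE 0.21, 95% interval −0.59 to 0.30, adjusted p = 0.837 by limma), −0.008 without Rragc+/+ replicate 1, −0.007 without RragcS74N/+ replicate 1, and 0.12, the other direction, after a trend with the GC content of transcript 3′ ends was removed from each library. The last 500 bases of its transcript are rich in G and C, at 54.8%, the 92.2nd percentile of the listed genes.

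Pdpk1 encodes PDK1, which phosphorylates the activation loop of AKT. It was at 65.2, 58.4, 69.4, 76.4 and 76.2 normalized counts in Rragc+/+ and at 74.3, 51.9, 64.8 and 54.3 in RragcS74N/+ libraries. RragcS74N/+ replicates 2 and 4 were below every Rragc+/+ library and the other 2 lay inside their range. On the log2 scale the difference was −0.18 (SE 0.18, 95% interval −0.56 to 0.21, adjusted p = 0.773 by limma). It was −0.103 without RragcS74N/+ replicate 2 and −0.273 without RragcS74N/+ replicate 1. After removal of the GC trend it was −0.36, with an unadjusted p of 0.0422 and an adjusted p of 0.874 by limma. The last 500 bases of its transcript are poor in G and C, at 30.6%, the 4.6th percentile.

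For none of the 9 genes did the difference between genotypes pass the test. The 95% intervals reached 0.91 upward (Pik3r5) and −0.78 downward (Akt2), so equal levels were not shown. By limma, 0 of 9 had an adjusted p under 0.05, against 0 of all 6673 tested genes (0%). At an unadjusted p under 0.05 the count was again 0 of 9, where 5.81% of all tested genes passed (388 by limma, 460 by edgeR and 447 by DESeq2, of which 0 passed after adjustment with any of the tools). For 0 of 9 the genotypes did not overlap, which 1.69% of all tested genes did. The estimates were above Rragc+/+ for 4 genes and below it for 5, with a median of −0.03 on the log2 scale beside 0.02 over all tested genes. Upward estimates belonged to Pik3cd, Pik3cg, Pik3r5 and Pik3ap1, and downward ones to Pik3r1, Inpp5d, Akt1, Akt2 and Pdpk1. Removal of the GC trend moved 7 of the 9 estimates by over 1.5 times, to 0.38 for Pik3cd, 0.106 for Pik3cg, −0.16 for Pik3r1 and −0.22 for Akt2, beside the values given above for Inpp5d, Akt1 and Pdpk1. Where a level differs in sorted cells measured in bulk, fewer cells of a type and less RNA per cell cannot be told apart. The study's text describes the neutrophils as taken from several mice of each genotype, but the labels do not tie a library to a mouse, so p-values measure the spread between these libraries.

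**Figure D3:**
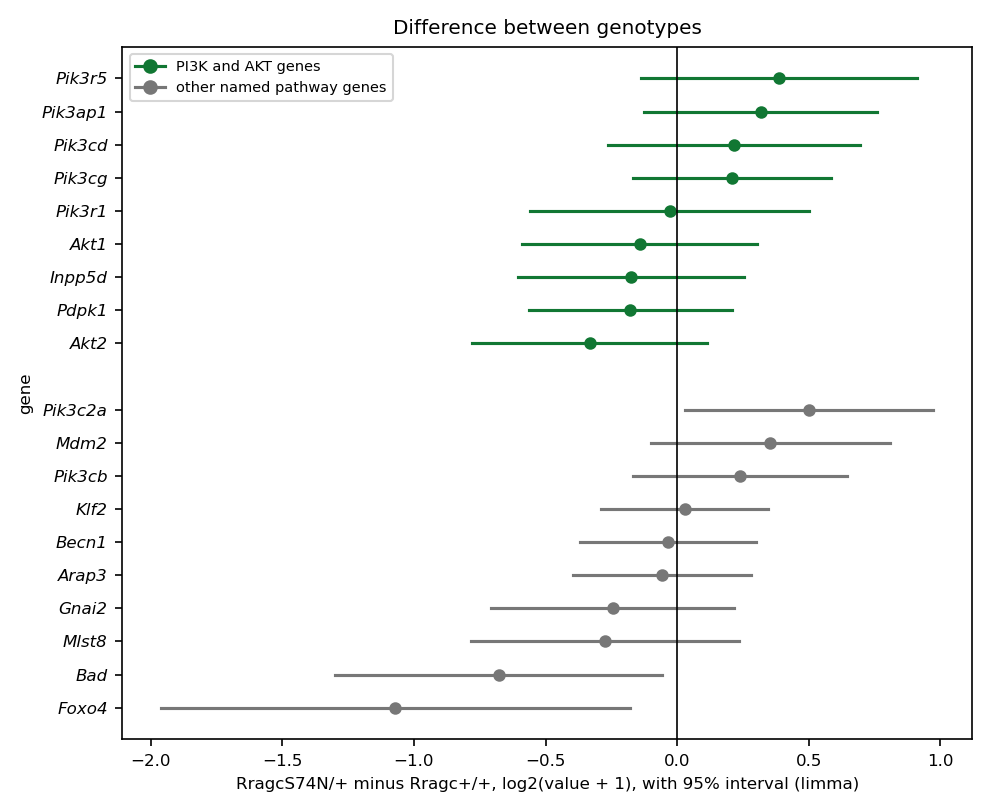
Difference between genotypes, RragcS74N/+ minus Rragc+/+ on the log2(value + 1) scale, as points with 95% intervals from limma, for the 9 PI3K and AKT genes (green) and 10 other pathway genes (grey). All 9 green intervals cross 0, from Pik3r5 at 0.39 to Akt2 at −0.33.

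The precision of these estimates differed between the genes. Pdpk1 varied the least within genotypes, with an SD of 0.20 on the log2 scale, and 10.1% of the tested genes of like level varied less. Pik3cg came next with 0.22 and 22.9%. Pik3r1 and Pik3r5 varied most, with 0.415 and 0.405, and 74.7% and 71.1% of genes of like level varied less. For Pik3cd, with 220 to 853 reads a library, the variance within genotypes was 29.5 times that expected from counting reads alone, whereas for Pdpk1 it was 1.34 times. The spread of Pik3cd thus exceeded the counting error of its reads, provided that each read is a separate molecule.

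**Figure D4:**
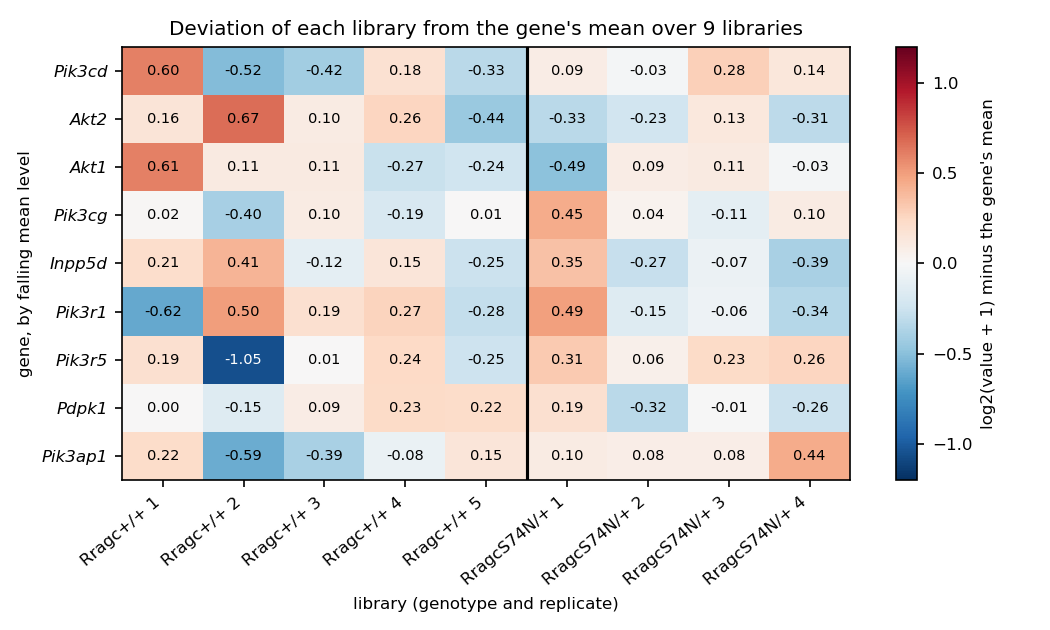
Deviation of each of the 9 genes (rows) in each library (columns) from the mean of that gene over all libraries, on the log2(value + 1) scale, with red above and blue below the mean and the value in each cell. Rragc+/+ replicate 2 has the strongest colours, with a root mean square deviation of 0.56, and RragcS74N/+ replicate 3 the faintest, with 0.14.

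Profiles over the 9 libraries were compared with those of the other tested genes, each centred on its own mean on the log2 scale. The profile most like that of Pik3cd was that of Csnk2a2, a catalytic subunit of casein kinase 2, with a root mean square difference of 0.12 where the median gene had 0.48. For Akt2 it was E2f2, a transcription factor of the cell cycle, with 0.0645 against a median of 0.46. For Akt1 it was Capzb, a subunit of the actin capping protein, with 0.105 against a median of 0.46. These profiles share the libraries and their depth, and each was the closest among all tested genes.

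The rest of the pathway was examined through 8 lists of genes placed around the 9, in which 0 genes passed after adjustment and 0 had genotypes that did not overlap. Of the 64 genes tested in them, 3 (4.69%) had an unadjusted p under 0.05 by limma, beside 5.81% of all tested genes, so the share was near the background. Of 5 further class I subunits, 4 were tested, with 3 estimates above and 1 below Rragc+/+ and a median of 0.13 on the log2 scale. The most abundant was Pik3cb, at 92.9 ± 19.3 (SD, n = 5) and 108 ± 8.35 (SD, n = 4) normalized counts. Of 18 receptors, G proteins and adaptors upstream, 16 were tested, with 8 above, 8 below and a median of −0.02. Gnai2, the Gαi subunit coupled to chemoattractant receptors, was the most abundant at 3640 ± 898 and 3017 ± 529 normalized counts.

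Of 10 phosphatases and inhibitors of the pathway, 5 were tested, with 3 above, 2 below and a median of 0.09. Of 17 genes listed as effectors of PIP3, 16 were tested, with 8 above, 8 below and a median of 0.00. The most abundant was Arap3, a GTPase-activating protein for Arf, at 327 ± 13.6 and 317 ± 53.7 normalized counts.

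Of 12 AKT substrates, 7 were tested, with 3 above, 4 below and a median of −0.15 on the log2 scale, and 2 had an unadjusted p under 0.05. Foxo4, a FOXO transcription factor, was at 5.93, 24.5, 20.6, 11.3 and 15.0 normalized counts in Rragc+/+ and at 9.28, 3.05, 7.53 and 6.27 in RragcS74N/+ libraries. These values rest on 3 to 22 reads each, and 1 Rragc+/+ library (replicate 1) lay inside the mutant range. The log2 difference was −1.07 (SE 0.41), with an unadjusted p of 0.022 and an adjusted p of 0.713 by limma. After removal of the GC trend it was −0.80, with an unadjusted p of 0.0622 by limma. The unadjusted p was over 0.05 in 2 of the 8 fits that left out a library and tested Foxo4. Without Rragc+/+ replicate 2, the library with its highest value, Foxo4 fell below the filter and was not tested.

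Bad, a pro-apoptotic protein that AKT phosphorylates, was at 75.1, 214, 149, 82.0 and 91.2 normalized counts in Rragc+/+ and at 55.7, 76.3, 89.6 and 62.7 in RragcS74N/+ libraries. Rragc+/+ replicates 2 and 3 were far above the rest, and replicate 5 was just above the highest mutant library. Rragc+/+ replicates 1 and 4 lay inside the mutant range. Its log2 difference was −0.68 (SE 0.29, unadjusted p = 0.0347, adjusted p = 0.713 by limma), and it was −0.45 (unadjusted p = 0.075 by limma) without Rragc+/+ replicate 2. After removal of the GC trend it was −0.345, with an unadjusted p of 0.124 by limma. The unadjusted p was over 0.05 in 4 of the 9 fits that left out a library. The most abundant of the tested substrates was Mdm2, which encodes the ubiquitin ligase of p53, at 213 ± 57.5 (SD, n = 5) and 267 ± 39.0 (SD, n = 4) normalized counts.

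Of 8 genes that FOXO factors are known to regulate, 7 were tested, with 4 above, 3 below and a median of 0.03. The most abundant, Klf2, a transcription factor of leukocyte quiescence and trafficking, was at 908 ± 110 (SD, n = 5) and 921 ± 25.8 (SD, n = 4) normalized counts. All 4 subunits of mTORC2, the kinase of the AKT hydrophobic motif, were tested, with 3 above, 1 below and a median of 0.13. Mlst8, which mTORC2 shares with mTORC1, was the most abundant at 111 ± 23.2 and 94.1 ± 29.7 normalized counts.

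Of 6 genes of class II and III PI3K, which make other phosphoinositides on endomembranes, 5 were tested, with 2 above, 3 below and a median of −0.03. Pik3c2a, the class II PI3K of endocytosis, was at 39.5, 51.4, 69.4, 61.9 and 70.2 normalized counts in Rragc+/+ and at 106, 86.4, 61.8 and 77.3 in RragcS74N/+ libraries. In 3 of the 4 mutant libraries it was above every Rragc+/+ library, and replicate 3 lay among them. Its log2 difference was 0.50 (SE 0.22, unadjusted p = 0.0395, adjusted p = 0.713 by limma). By limma it was 0.309 after removal of the GC trend (unadjusted p = 0.138) and 0.374 with array weights (unadjusted p = 0.0727). With columns scaled to equal totals it was 0.492 (unadjusted p = 0.0537 by limma). The unadjusted p was also over 0.05 in 5 of the 9 fits that left out a library. Becn1, the Beclin subunit of the class III complex, was the most abundant at 247 ± 14.7 (SD, n = 5) and 243 ± 35.7 (SD, n = 4) normalized counts.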

How the data were processed

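Neutrophil RNA was made into strand-specific 3′-end libraries by oligo-dT priming, with molecular identifiers on the second strand. Whether reads were collapsed by identifier is not given in the sources used here, so counting error may understate the noise. Per the study's methods and the submitters' processing notes, the authors checked reads with FastQC 0.11.7, aligned them to GRCm39 with TopHat2 2.0.10, Bowtie 1.0.0 and SAMtools 1.9, and counted them per gene and strand with HTSeq 0.6.1. The deposited signal is the read count divided by a size factor per library. Divided by the step between low values of a library, 100% of its values came out whole to within 0.001 read, and the quotients served as recovered reads. The listed genes had a read in at least 7 libraries and at least 8 reads in 1 of them, so scarce transcripts are not listed.

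Columns were matched to samples by title, with 0 columns unmatched, and genotypes came from the labels. The study's text describes more mutant mice than there are RragcS74N/+ libraries here. No batch or date is labelled. None of the 16 pairs of libraries within a genotype agreed within counting noise (lowest chi-square over its degrees of freedom 5.76), and each library was kept as a sample of its own.

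Genes with a mean of at least 10 (6673, leaving out 524) were tested on log2(value + 1) with limma 3.58.1 in R 4.3.3, with trended moderation and genotype as the only term. Fold changes of low genes come out too small on this scale. Adjustment followed Benjamini-Hochberg over all tested genes. edgeR 4.0.16 and DESeq2 1.42.0 served as alternatives, fitted to the recovered reads. Other alternatives were the pseudocount, the filter, scaling, moderation, library weights, each library left out, and, chosen after seeing the data, removal of a trend with the GC content of the last 500 bases of transcripts, taken from GENCODE models of GRCm38 by symbol for 7067 of the 7197 genes. Of these fits, only the main limma fit was tested on simulated data. The members and the pathway lists were chosen with earlier results of these data known. Named were all 9 members, Rragc, each list's most abundant gene, its genes with an unadjusted p under 0.05 or no overlap, and the gene most like each of the 3 most abundant members. Shares and ratios are descriptions without a test. Some genes named by this rule are not reported here.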

Additional observations from a re-analysis of the deposited data

Results flagged for a closer look

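In 74 groups of 4 or 5 libraries, the gap between an extreme library and its nearest neighbour was divided by the range of the group and compared with Dixon's 95% critical value for a group of that size. It was exceeded in 4 groups, and chance gives about 1 in 20, or 3.7. Pik3ap1 in RragcS74N/+ replicate 4 was far above the other 3 mutant libraries, with a gap of 0.942 of the range. Pik3cb in RragcS74N/+ replicate 2 was far below the other mutant libraries, with a gap of 0.839. Arap3 in Rragc+/+ replicate 5 was below the other Rragc+/+ libraries, with a gap of 0.767. The ratio of Pik3cd to Pik3r1 in Rragc+/+ replicate 1 was above those of the other Rragc+/+ libraries, with a gap of 0.74, and stood at 9.58 where the others ranged from 2.00 to 3.97. The genes were taken on the log2(value + 1) scale, but this ratio was taken without a logarithm. Its flag holds for that scale, and its gap on a log scale was not examined.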

How the results depend on the processing

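Under all 20 alternatives, 9 of which left out a library, 0 of the 9 members and 0 of all tested genes had an adjusted p under 0.05, and the smallest adjusted p of a member was 0.326 by limma. The members' genotypes overlapped under each alternative in which overlap was counted. Of 180 member estimates, 174 kept their direction, and 7 members kept it throughout. Members with an unadjusted p under 0.05 numbered 1 after removal of the GC trend (Pdpk1) and 0 to 1 when a library was left out (Akt2 without Rragc+/+ replicate 5). Genes with an unadjusted p under 0.05 numbered 388, against 191 with a mean of at least 50, 769 with array weights, 254 after removal of the GC trend, and 201 (without Rragc+/+ replicate 2) to 907 (without Rragc+/+ replicate 5) when a library was left out. Their cause was not tested, except that the stricter filter tested fewer genes. Of these genes 65.5% were lower in the mutant, against 73.9% with edgeR, 72.7% with DESeq2, 71.4% after scaling to equal column totals, 56.0% with array weights and 55.5% to 69.7% when a library was left out. After removal of the GC trend the log2 estimate of Akt1 was 0.12 and that of Arap3 0.026, and with array weights that of Klf2 was −0.01. Array weights moved 5 member estimates by over 1.5 times, to 0.102 for Pik3cg, −0.147 for Pik3r1, 0.185 for Pik3r5, −0.018 for Akt1 and −0.271 for Pdpk1. When a library was left out, the estimates ranged from −0.198 to 0.093 for Pik3r1, −0.151 to 0.017 for Arap3, −0.028 to 0.078 for Klf2, −0.123 to 0.035 for Becn1 and −0.155 to 0.001 for Rragc. No paired analysis was possible because each library is titled with a code and carries no number that pairs it across genotypes. With 5 and 4 libraries, the 95% intervals of the members extended by 0.376 (Pik3cg) to 0.53 (Pik3r1) on the log2 scale to each side of the estimate.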

Other observations

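Ratios between transcripts within a library do not depend on the scaling of that library, but they can depend on how fully each 3′ end was captured. Pik3cd stood at 2.45 ± 0.809 (SD, n = 5) times the level of Pik3cg in Rragc+/+ and 2.40 ± 0.526 (SD, n = 4) times in RragcS74N/+ libraries, and above it in every library. Akt2 stood at 2.19 ± 0.675 and 1.87 ± 0.305 times the level of Akt1. Pik3cg, the class IB catalytic gene, stood at 2.13 ± 0.636 and 1.83 ± 0.256 times the level of its partner Pik3r5. These ratios were not tested, since the genes were chosen with the data known.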
